A study of Mus musculus with 24 samples.

Results

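Hapten-binding IgG1 memory B cells of the spleen, sorted 7 days after immunization, were compared with resting follicular B cells, the naive population of the same organ. The comparison uses 6 of 24 arrays, the 3 whose titles name memory B cells of day 7 and the 3 whose titles name follicular B cells without stimulation. All cells came from spleens of female C57BL/6 mice and carried no engineered allele that the labels name. Follicular cells came from mice of 8 to 10 weeks, with no immunization named. Magnetic beads removed cells positive for CD3, CD90, CD5, CD43, CD95, CD138, CD11b, Gr-1, TER119 or F4/80, and B220+ AA4.1- CD21int CD23+ cells were then sorted. Memory cells came from mice immunized with NP-CGG/alum at 8 to 10 weeks of age. They were depleted with antibodies against IgD, IgM, CD3, CD90, CD5, NK1.1, DX5, Gr1, TER119 and F4/80, and then sorted as cells binding the hapten NIP that were B220+ IgG1+ CD38+ PNA-. The antibodies used for depletion thus differed between the groups. The question the comparison addresses is which genes set early memory cells apart from naive cells.

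Memory B cells are the long-lived, antigen-experienced cells that answer a second encounter with antigen faster than naive cells do. After immunization, activated B cells can become memory cells, plasma cells, which secrete antibody, or germinal center cells, which divide rapidly and mutate their antibody genes. Follicular B cells are the resting naive B cells from which such responses start. In a sorted population, fewer cells that express a gene and less RNA of it per cell cannot be told apart.

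Expression was measured on oligonucleotide arrays and is given as log2 signal, with replicates always in the order 1, 2 and 3. A change is the mean of the memory arrays minus the mean of the follicular arrays, ± SE, so a change of 1 is a doubling. A gene was called higher or lower when its adjusted p (limma, Benjamini-Hochberg over 11208 genes tested) was under 0.05 and its change at least 1 in size. A group is said to lie at background where each of its 3 arrays was at or below the median of its own array, and a change against such a group is a lower bound. The labels do not say whether replicates came from separate animals, so p-values measure only the spread between these samples, which may be technical. On the 6 arrays 39.3% to 43.1% of probe sets lay at the lowest value of the table, 2.15. The precision of each value is limited by having 3 arrays a group. Follicular replicate 1 had the lowest share at that value and a mean correlation of 0.984 with the other follicular arrays, against 0.989 and 0.991 for replicates 2 and 3.

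Memory replicate 1 stood apart from replicates 2 and 3 over the whole array, so counts and changes are also given after leaving it out. Across all probe sets, which are not independent replicates, its mean correlation with the 3 germinal center arrays of day 7 was 0.971, against 0.953 and 0.956 for replicates 2 and 3. With the other memory arrays of day 7 and with those of day 40 its mean correlation was higher, at 0.985 and 0.980. Its mean correlation with the follicular arrays was 0.958, against 0.967 for each of the other 2. In 265 genes it lay more than 2 above both other memory replicates, and in 35 genes more than 2 below both. Of the 265 genes, 239 had a germinal center mean at least 2 above the mean of memory replicates 2 and 3, 193 had such a plasma cell mean, 174 had both and 7 had neither. These counts are a description of the array, chosen by its own values.

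The 10 genes with the largest excess in replicate 1 fell into sets that other populations express. Gcsam, a germinal center signalling adaptor, read 9.21, 2.26 and 2.40 in the memory arrays and 12.16, 12.48 and 11.69 in the germinal center arrays. Mef2b, a transcription factor of germinal center cells, read 9.31, 2.47 and 2.73, and Mybl1, another of their transcription factors, 9.95, 3.27 and 3.61. Hbb-bh1, an embryonic globin, read 11.33, 3.03 and 5.09 in memory cells and 11.13, 11.23 and 11.75 in germinal center cells, and Pbk, a mitotic kinase, read 9.20, 2.25 and 3.09. Neutrophil granule and calcium-binding genes made up the rest. S100a8 read 12.36, 2.15 and 3.28 in the memory arrays and 13.37, 13.37 and 13.14 in the plasma cell arrays. Camp read 10.60, 2.20 and 2.21, Ngp 10.04, 2.15 and 2.15, Lcn2 9.13, 2.15 and 2.15 and Mpo 8.81, 2.15 and 2.15. In the follicular arrays these 5 genes did not rise above 2.21. The largest deficits of replicate 1 were in Tmprss13 (3.74, 8.99 and 8.66), Mansc1 (2.16, 6.36 and 5.70), Atf7 (5.87, 8.99 and 9.39), Nrp2 (3.55, 6.59 and 6.59) and Ercc6 (2.95, 5.96 and 7.01).

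**Figure D1:**
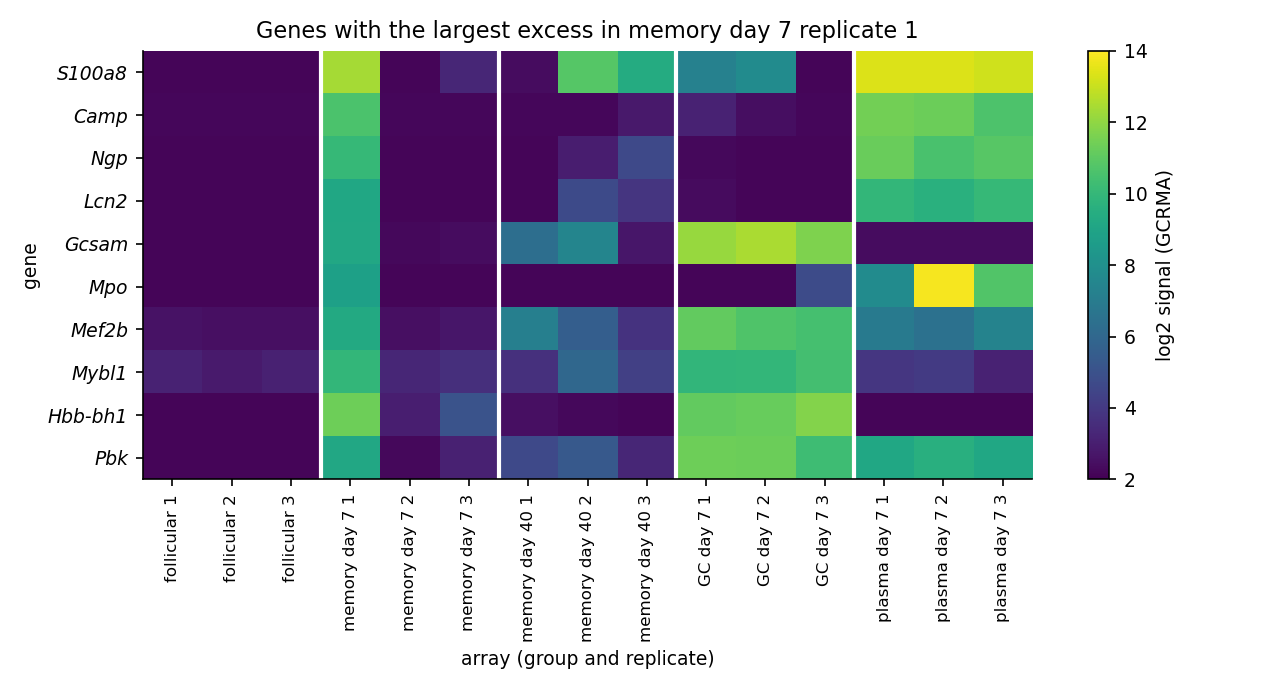
Log2 signal (colour scale) of the 10 genes with the largest excess in memory day 7 replicate 1, 1 row per gene and 1 column per array, for follicular, memory (day 7 and day 40), germinal center (GC) and plasma cell arrays. Replicate 1 of the day 7 memory cells is bright in each of the 10, while replicates 2 and 3 stay near the follicular arrays in most, and the genes are bright in germinal center arrays, plasma cell arrays or both.

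With all arrays, 1029 of 11208 genes (9.18%) were higher and 1031 (9.2%) lower in day 7 memory cells. Without memory replicate 1, 990 (8.83%) were higher and 1007 (8.98%) lower. The calls were shared for 906 higher and 874 lower genes. Another 123 higher and 157 lower genes were called only with replicate 1, 84 and 133 only without it, and 0 had opposite calls. Of the higher genes 103 had follicular arrays at background, and of the lower genes 61 had memory arrays at background. The median change of all genes tested was -0.04, and -0.04 without replicate 1.

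The genes that rose most went from near the bottom of the scale in follicular cells to near its top in memory cells. Parm1 (chromosome 5), which encodes a mucin-like membrane protein, read 2.57, 2.44 and 2.44 in the follicular arrays and 13.15, 13.47 and 13.28 in the memory arrays, a change of 10.82 ± 0.16 (adjusted p = 6.14e-19) and, without memory replicate 1, 10.89 ± 0.18 (adjusted p = 1.72e-17). Nfil3, a bZIP transcription factor on chromosome 13, read 2.41, 2.60 and 2.16 in the follicular arrays and 12.42, 13.27 and 13.26 in the memory arrays, a change of 10.59 ± 0.29 (adjusted p = 3.64e-15) and, without memory replicate 1, 10.88 ± 0.30 (adjusted p = 2.12e-14). Tent5c (chromosome 3), a poly(A) polymerase of antibody-secreting cells, read 2.30, 2.45 and 2.20 in the follicular arrays and 12.39, 12.63 and 12.47 in the memory arrays. In these 3 genes the lowest memory array stood more than 9 above the highest follicular array, and replicate 1 was the lowest memory array.

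Signalling genes were prominent among the other large rises. Rgs1 (chromosome 1), which shortens signals from chemokine receptors, read 2.39, 2.66 and 2.66 in the follicular arrays and 14.06, 12.12 and 12.31 in the memory arrays, with replicate 1 the highest. Its change was 10.26 ± 0.36 (adjusted p = 1.47e-13) and, without memory replicate 1, 9.64 ± 0.24 (adjusted p = 6.98e-15). Ackr2 (chromosome 9), a scavenging receptor for inflammatory chemokines, read 2.47, 3.36 and 3.85 in the follicular arrays and 12.49, 13.21 and 13.08 in the memory arrays, a change of 9.70 ± 0.27, 9.92 ± 0.29 without replicate 1. Pik3r6 (chromosome 11), a regulatory subunit of PI3K gamma, read 2.15, 2.15 and 2.15 in the follicular arrays and 10.66, 12.11 and 11.87 in the memory arrays, and follicular cells lay at background. Its rise of at least 9.40 ± 0.23 became 9.84 ± 0.10 without replicate 1, the lowest memory array for this gene. Gla (chromosome X), a lysosomal galactosidase, changed by 8.89 ± 0.49, 8.93 ± 0.56 without replicate 1, and Sspn (chromosome 6), a membrane protein of the dystrophin complex, by 8.83 ± 0.36, 9.18 ± 0.37 without replicate 1. Lmna (chromosome 3), which encodes nuclear lamins A and C, changed by 8.78 ± 0.44, 8.77 ± 0.51 without replicate 1, from follicular arrays at background. Its probe set has a name that marks possible cross-hybridization, and the one kept when such names were left out, with means of 2.53 and 2.56, lay near the bottom of the scale in both groups (0.03, not called). The other Lmna probe sets above background were higher by 6.79 and 7.21.

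The largest falls ran the other way, from middle or high follicular levels to near the bottom of the scale. Crip3 (chromosome 17), a small LIM domain protein, read 10.20, 10.22 and 10.12 in the follicular arrays and 2.59, 2.37 and 3.57 in the memory arrays, a change of -7.34 ± 0.30 (adjusted p = 1.51e-12) and, without memory replicate 1, -7.21 ± 0.33 (adjusted p = 3.75e-11). Pde2a (chromosome 7), a phosphodiesterase that breaks down cyclic nucleotides, read 10.92, 11.12 and 10.93 in the follicular arrays and 4.32, 3.40 and 4.54 in the memory arrays, a change of -6.90 ± 0.44, -7.02 ± 0.50 without replicate 1. Mapk12 (chromosome 15), a p38 MAP kinase, read 8.29, 7.76 and 7.89 in the follicular arrays and 2.29, 2.23 and 2.86 in the memory arrays, a change of -5.52 ± 0.26, -5.43 ± 0.30 without replicate 1. In each of the 3 genes the follicular arrays agreed within 0.6 and no memory array came near them.

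Further falls were those of Il12a, Sox4, Spns2, Gad1, Plpp3, B3gnt8, Tnik and Mturn. Il12a (chromosome 3), a subunit of interleukin 12, read 8.63, 9.29 and 9.29 in the follicular arrays and 3.77, 3.40 and 3.87 in the memory arrays. Sox4 (chromosome 13), a transcription factor of lymphocyte precursors, read 7.43, 8.0 and 8.03 in the follicular arrays and 2.92, 2.35 and 2.19 in the memory arrays, a change of -5.33 ± 0.46, -5.55 ± 0.52 without replicate 1. Taken as the mean of its probe sets, Sox4 stood at -0.82 and was not called. Spns2 (chromosome 11), an exporter of sphingosine-1-phosphate, read 7.63, 8.46 and 7.77 in the follicular arrays and 2.54, 2.54 and 2.80 in the memory arrays, and Plpp3 (chromosome 4), a phosphatase that degrades lipid phosphates, read 7.23, 7.30 and 7.22 in the follicular arrays and 2.18, 2.43 and 2.19 in the memory arrays. Gad1 (chromosome 2), the enzyme that makes the transmitter GABA, read 8.10, 8.65 and 8.10 in the follicular arrays and 2.71, 4.07 and 3.09 in the memory arrays. B3gnt8, a glycosyltransferase, read 8.36, 8.39 and 8.56 in the follicular arrays and 2.18, 2.98 and 2.20 in the memory arrays, a change of -5.98 ± 0.31, -5.85 ± 0.35 without replicate 1. Tnik, a kinase of Wnt and cytoskeletal signals, read 7.71, 9.20 and 8.88 in the follicular arrays and 3.28, 3.08 and 3.07 in the memory arrays, a change of -5.45 ± 0.42, -5.52 ± 0.48 without replicate 1. Mturn, a small cytoplasmic protein, read 7.92, 7.69 and 8.08 in the follicular arrays and 2.84, 2.98 and 3.02 in the memory arrays, a change of -4.95 ± 0.38, -4.90 ± 0.44 without replicate 1. The largest falls were chosen among genes without overlap between the groups. In Il12a, Sox4, Spns2, Gad1 and Plpp3 the changes of -5.39 to -4.98 lay between -5.55 and -4.70 without replicate 1.

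**Figure D2:**
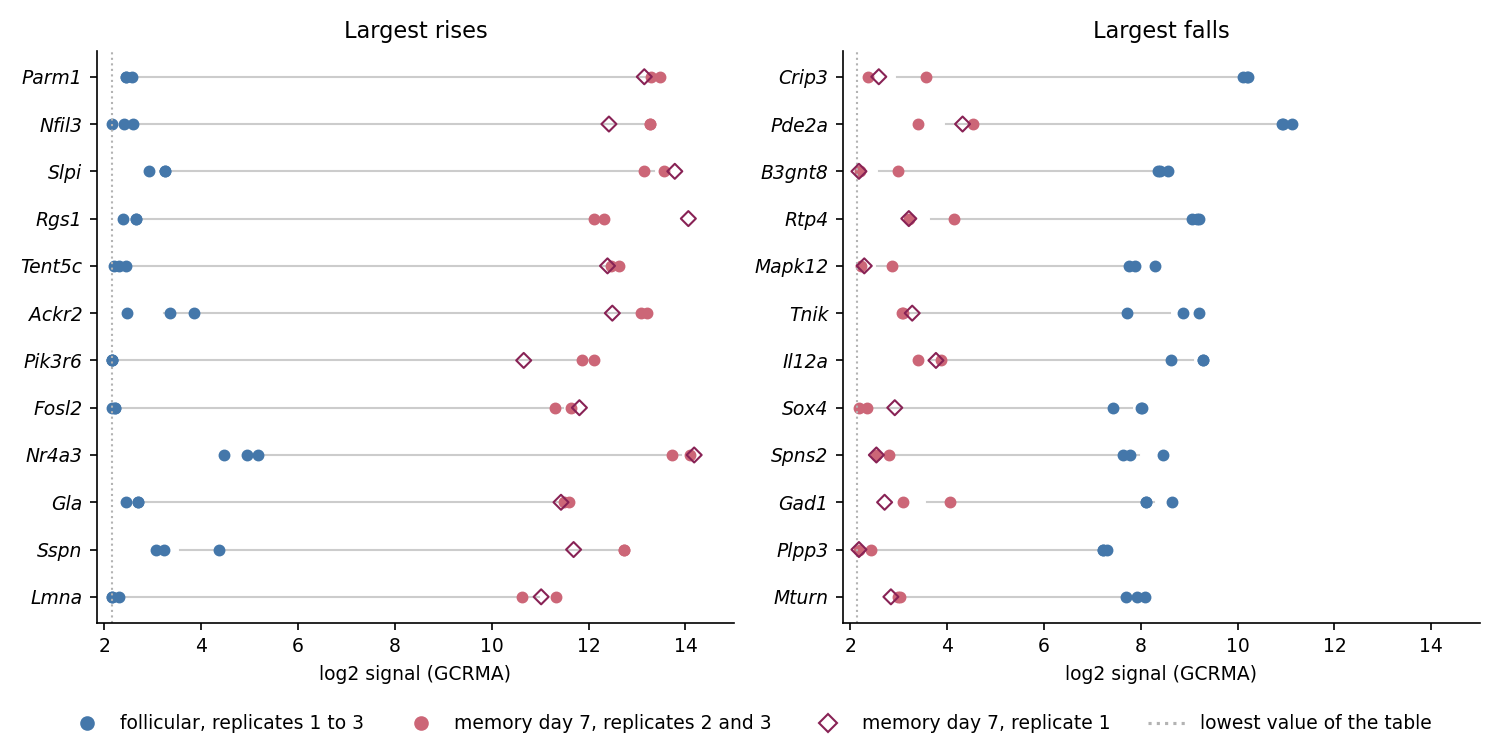
Log2 signal on each of the 6 arrays for the 12 largest rises (left) and the 12 largest falls (right). They were chosen among genes called with and without memory replicate 1 whose arrays do not overlap between the groups. Blue points are follicular arrays, red points memory replicates 2 and 3, the open diamond memory replicate 1, the line joins the follicular mean to the mean of memory replicates 2 and 3, and the dotted line is the lowest value of the table. By that choice memory replicate 1 lies on the memory side in each row. It lies above the other memory arrays in Rgs1 and below them in Pik3r6 and Sspn.

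**Figure D3:**
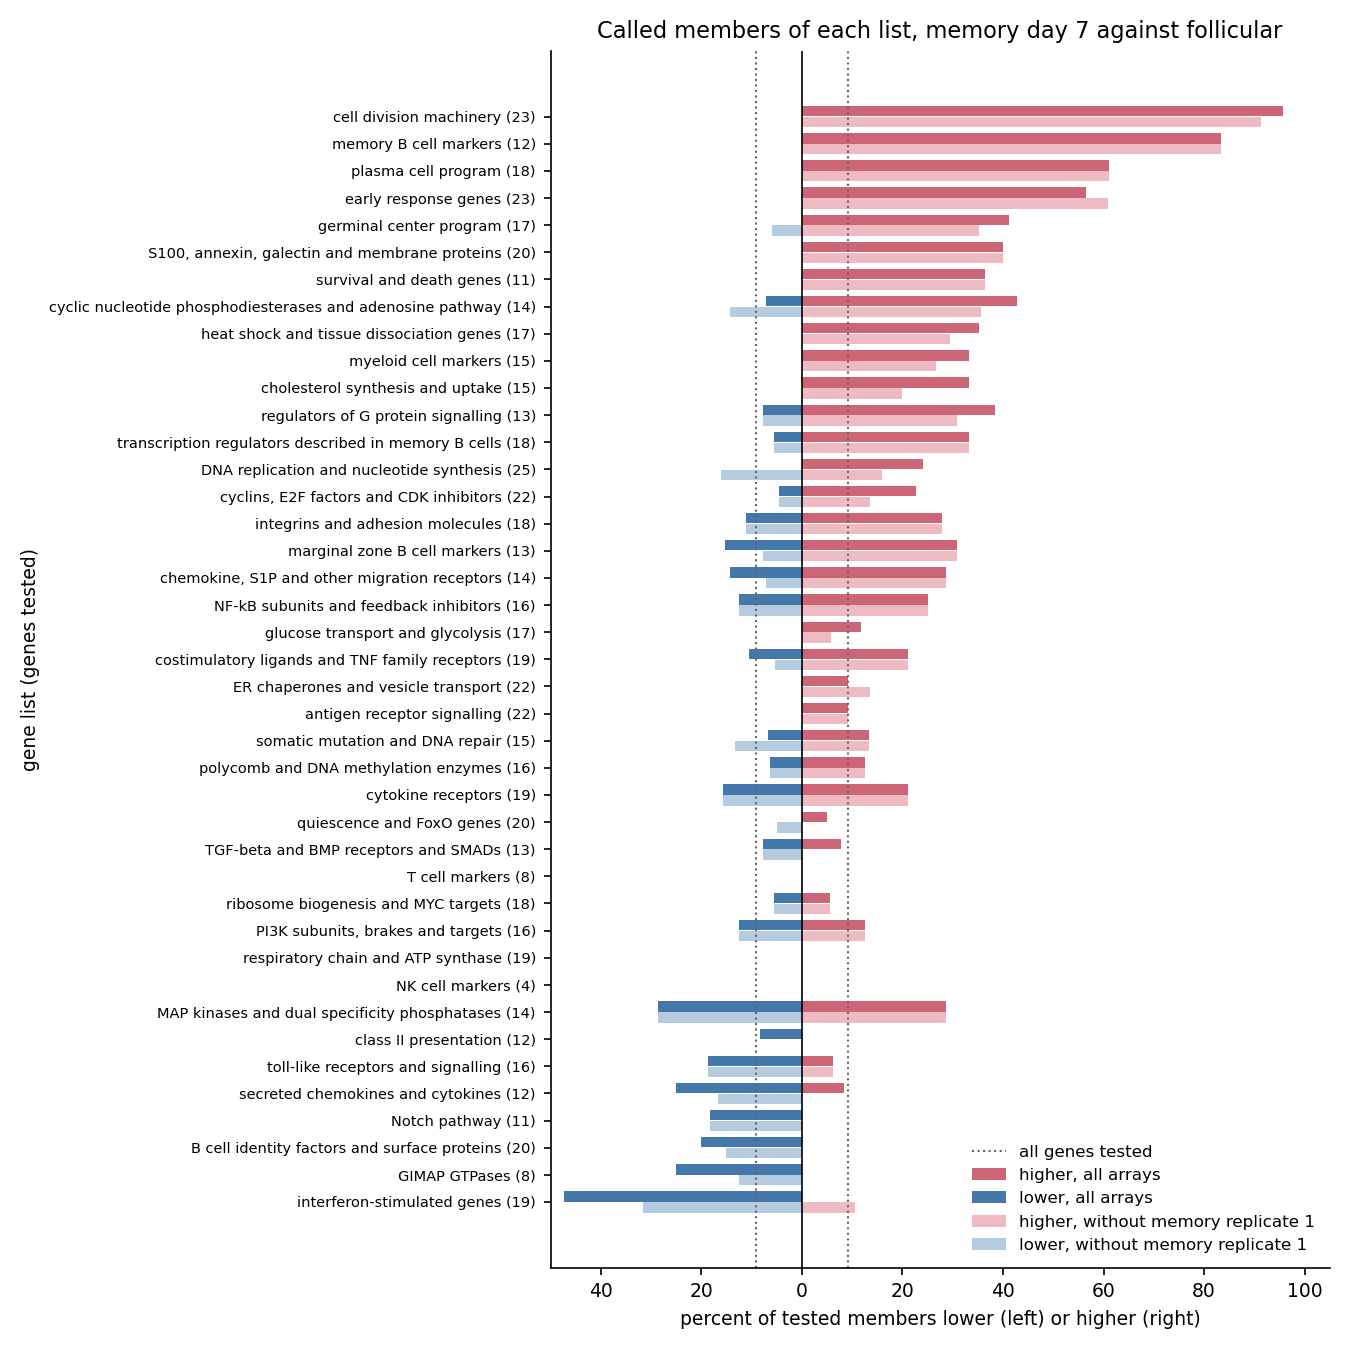
Percent of the tested members of each gene list called higher (right, red) or lower (left, blue) in day 7 memory than in follicular cells, with all arrays (dark) and without memory replicate 1 (pale). The number tested stands beside each name, and dotted lines give the share over all genes tested, 9.18% higher and 9.2% lower. Cell division, memory markers, the plasma cell program and early response genes reach farthest to the right, and interferon-stimulated genes farthest to the left.

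Genes of the cell division machinery were higher in memory cells, and most so in replicate 1. Of 23 members tested 22 were called higher and 0 lower, against a background of 9.18% higher, and 21 and 0 without replicate 1. The median change was 5.30, and 4.37 without replicate 1, while that of all genes was -0.04 in both. Ube2c (chromosome 2), a ubiquitin-conjugating enzyme of mitotic exit, read 2.84, 3.17 and 3.52 in the follicular arrays and 12.38, 10.33 and 9.96 in the memory arrays, a change of 7.71 ± 0.45 (adjusted p = 3.59e-10) and, without memory replicate 1, 6.97 ± 0.33 (adjusted p = 5.34e-11). Kif23 (chromosome 9), a motor protein of cytokinesis, read 3.13, 3.32 and 3.52 in the follicular arrays and 11.33, 8.93 and 9.45 in the memory arrays, a change of 6.58 ± 0.45 (adjusted p = 2.82e-09) and, without memory replicate 1, 5.87 ± 0.35 (adjusted p = 1.16e-09). Cdk1, the kinase that drives entry into mitosis, read 3.50, 3.81 and 3.42 in the follicular arrays and 11.86, 7.83 and 8.41 in the memory arrays, and Mki67, the gene of the proliferation antigen Ki-67, read 8.47, 6.84 and 6.42 in the follicular arrays and 13.71, 12.15 and 12.23 in the memory arrays. Replicate 1 was the highest memory array in each of these 4 genes, and replicates 2 and 3 still lay above every follicular array.

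The size of the excess in replicate 1 differed among members. Kif11, a spindle motor, read 11.51, 8.51 and 8.43 in the memory arrays and 3.23 in each follicular array, and Ccnb2, a mitotic cyclin, read 2.98, 3.78 and 3.0 in the follicular arrays and 10.56, 8.61 and 8.55 in the memory arrays. Cenpa, the histone of centromeres, read 9.70, 10.26 and 10.36 in the follicular arrays and 12.44, 11.79 and 12.11 in the memory arrays and differed little among the memory arrays. Aurka, a kinase of spindle poles, was called with all arrays (2.04 ± 0.72, adjusted p = 0.0347) and not without memory replicate 1 (0.86 ± 0.52, adjusted p = 0.247), follicular replicate 1 (1.71) or follicular replicate 3 (2.14). Plk1, another mitotic kinase, was called in neither. Relative to the follicular mean, the median member stood 6.77, 3.82 and 4.72 higher in memory replicates 1, 2 and 3. The same median was 7.98 to 8.61 in germinal center cells of day 7 and 6.13 to 7.10 in plasma cells. In memory cells of day 40 it was 3.75, 4.62 and 2.03, so the rise was not particular to day 7. It was 2.95 to 3.75 in marginal zone B cells, another naive population, and -0.20 to -0.02 in follicular cells stimulated for 6 h.

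The promoters of these genes were read for sequence features that the arrays did not use. A stretch of 300 bases around the gene start, most of it upstream, was read from RefSeq (GRCm38.p6) and was found for 19 of the 23 genes. The element TTTGAA, known as the cell cycle genes homology region or CHR, occurred on either strand in 15 of the 19 promoters (78.9%), in 12.5% of 11610 promoters of tested genes and in 17.9% of all 32851 promoters. The motif CCAAT occurred in 16 of 19 (84.2%), in 17 of 24 promoters of DNA replication genes (70.8%; 15 of 21 genes), and in 38.1% of promoters of tested genes. The E2F motif TTTCCCGC was found in 0 of 19, and in 4 of 24 promoters (16.7%) of 21 DNA replication genes, against 2.07% over tested genes. A match describes these letters and is not evidence of a site in use. The promoters of Ube2c (chr2:164769679-164769978, plus strand) and Kif23 (chr9:61946750-61947049, minus strand), which showed the largest rises of the list, are given 5′ to 3′, with matches to TTTGAA and CCAAT on either strand in capitals.
Ube2c: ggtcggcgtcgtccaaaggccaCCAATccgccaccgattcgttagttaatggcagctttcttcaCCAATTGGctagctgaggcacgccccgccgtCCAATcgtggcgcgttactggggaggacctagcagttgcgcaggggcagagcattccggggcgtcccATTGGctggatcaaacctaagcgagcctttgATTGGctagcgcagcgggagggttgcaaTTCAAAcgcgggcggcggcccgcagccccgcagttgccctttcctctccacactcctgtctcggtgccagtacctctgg
Kif23: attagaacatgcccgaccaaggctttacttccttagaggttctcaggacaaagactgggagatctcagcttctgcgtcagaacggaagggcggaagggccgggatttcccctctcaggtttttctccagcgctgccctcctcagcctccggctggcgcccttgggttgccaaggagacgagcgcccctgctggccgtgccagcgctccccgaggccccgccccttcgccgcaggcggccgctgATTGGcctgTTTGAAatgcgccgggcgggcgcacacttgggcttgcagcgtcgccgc

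DNA replication genes were called less uniformly than mitotic genes, and differently with and without replicate 1. Of 25 tested, 6 were called higher and 0 lower with all arrays (background 9.18%), and 4 higher and 4 lower without replicate 1. The median change was 0.17, and 0.00 without replicate 1. Cdc6, which loads the replicative helicase, read 2.98, 2.77 and 2.31 in the follicular arrays and 10.40, 5.23 and 4.85 in the memory arrays, a change of 4.14 ± 1.0 (adjusted p = 0.00338) and, without memory replicate 1, 2.35 ± 0.62 (adjusted p = 0.00738). Gins2, a helicase subunit, read 3.81, 3.52 and 2.73 in the follicular arrays and 9.0, 4.23 and 4.52 in the memory arrays, and its call of 2.56 ± 0.84 ended without replicate 1 (1.02 ± 0.50, adjusted p = 0.142). The call also ended without follicular replicate 2 (2.65) or 3 (2.25). Rrm2, a subunit of ribonucleotide reductase, read 10.89, 10.42 and 10.81 in the follicular arrays and 13.90, 12.09 and 12.39 in the memory arrays. Uhrf1, which maintains DNA methylation, read 9.93, 9.26 and 9.97 in the follicular arrays and 13.49, 11.29 and 11.38 in the memory arrays. Tk1, a thymidine kinase, read 9.37, 9.77 and 9.88 in the follicular arrays and 11.82, 11.28 and 11.27 in the memory arrays. These 3 were called with and without replicate 1. Members of the helicase and clamp loader were called lower only without it. Rfc3, of the clamp loader, read 8.07, 8.84 and 8.63 in the follicular arrays and 10.83, 6.53 and 6.91 in the memory arrays, a change of -0.42 ± 0.70 (adjusted p = 0.721) and, without memory replicate 1, -1.79 ± 0.31 (adjusted p = 0.000297). Mcm5, of the helicase, read 11.12, 11.40 and 10.89 in the follicular arrays and 12.36, 9.91 and 10.02 in the memory arrays, a change of -0.37 ± 0.47 (adjusted p = 0.616) and, without memory replicate 1, -1.17 ± 0.33 (adjusted p = 0.0108). Gins1 and Rfc4 behaved likewise, at -1.71 ± 0.43 and -1.35 ± 0.33 without replicate 1. For Rfc4 the sign turned (0.54, all arrays) with probe sets of cross-hybridizing names left out. Other probe sets above background changed little with all arrays, by 0.18 for Rfc3, 0.04 for Gins1, and 0.04 and -0.03 for Mcm5. They were not fitted singly without replicate 1, so each of these lower calls rests on 1 probe set. Relative to the follicular mean the median replication gene stood at 1.90, -0.15 and 0.05 in memory replicates 1, 2 and 3, and at 2.71 to 2.96 in germinal center cells.

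Among cyclins, E2F factors and CDK inhibitors, 5 of 22 tested were higher and 1 lower (backgrounds 9.18% and 9.2%), and 3 and 1 without replicate 1. E2f8, a repressor of the E2F family, read 2.15, 2.87 and 2.15 in the follicular arrays and 10.85, 6.82 and 7.90 in the memory arrays, a change of 6.13 ± 0.66 (adjusted p = 1.05e-06) and, without memory replicate 1, 4.97 ± 0.43 (adjusted p = 1.11e-07). E2f1, an activator of the family, read 2.46, 4.38 and 4.51 in the follicular arrays and 8.57, 6.88 and 5.84 in the memory arrays, a change of 3.31 ± 0.58, 2.58 ± 0.53 without replicate 1. Cdk6, a kinase of the entry into the cycle, changed by -1.26 ± 0.44, -1.67 ± 0.45 without replicate 1. The call of Cdk6 ended without memory replicate 2 (-0.998) or 3 (-1.10), or follicular replicate 2 (-1.07) or 3 (-1.14). Foxm1, a transcription factor of mitotic genes, read 3.90, 3.90 and 4.22 in the follicular arrays and 8.71, 4.82 and 5.57 in the memory arrays, and its call ended without replicate 1 (1.19 ± 0.46, adjusted p = 0.0634). So did that of Cdkn1a, the p21 inhibitor (2.45 ± 0.73, 1.82 ± 0.77 without replicate 1, adjusted p = 0.0887), which also ended without memory replicate 3 (2.26). The count of lower genes was 0 in 4 of the 6 fits that leave out an array and 2 without follicular replicate 1.

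**Figure D4:**
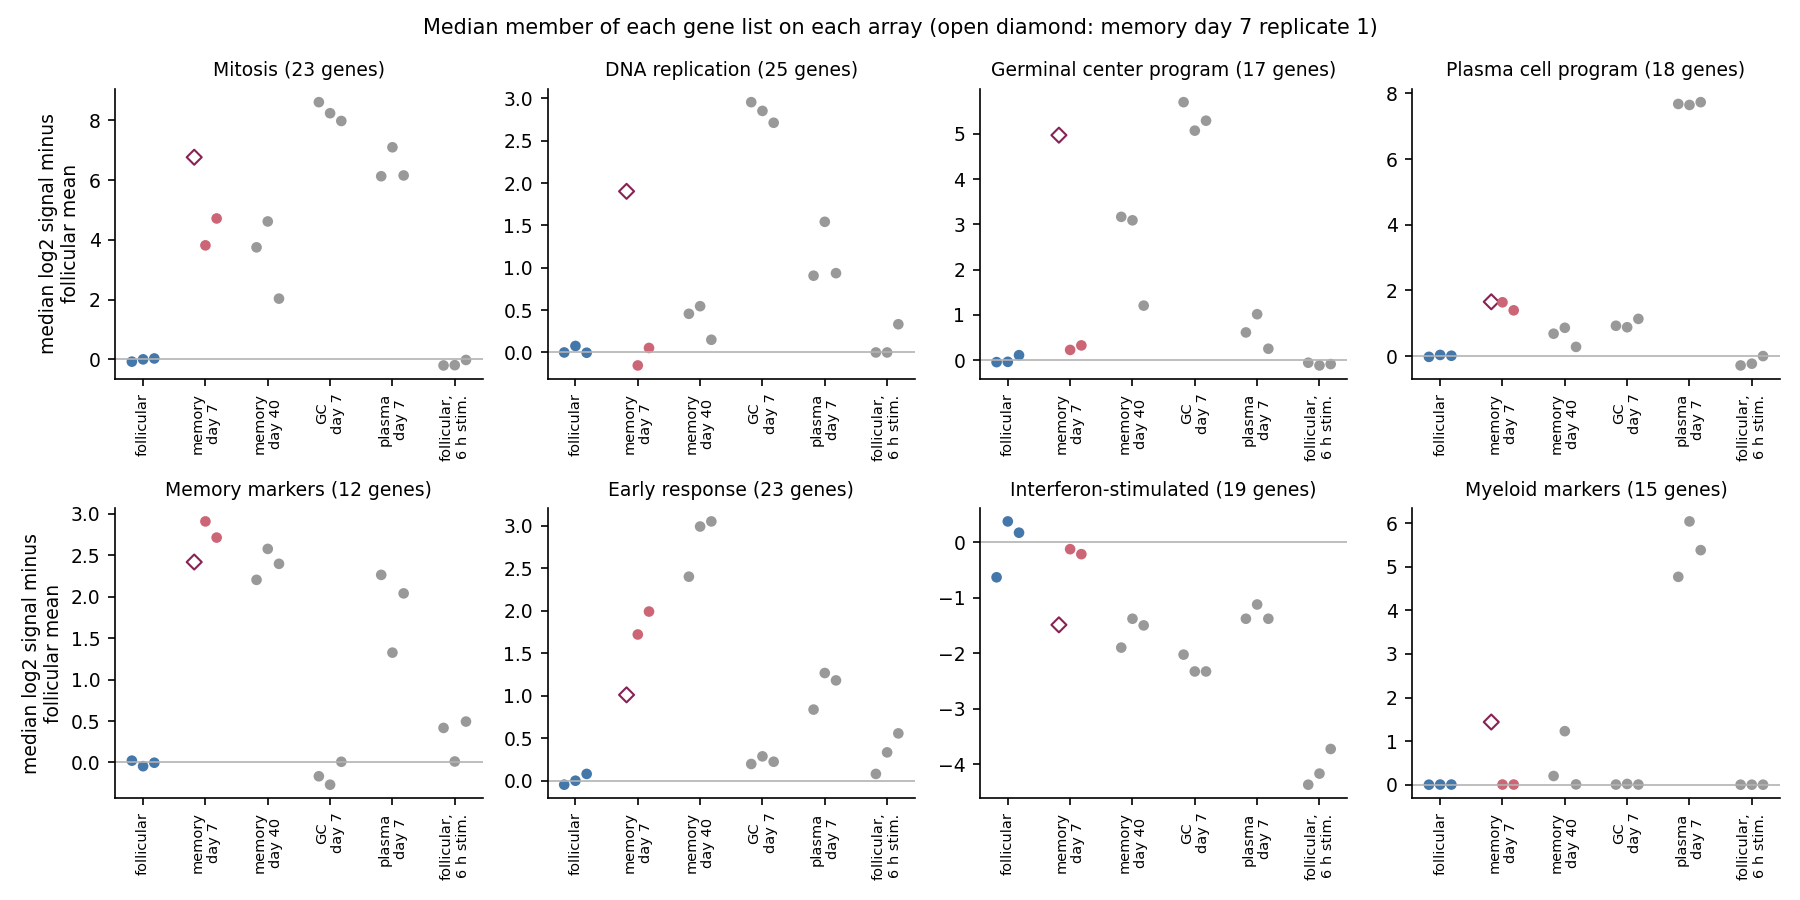
Median log2 signal of the members of 8 gene lists on each array, relative to the follicular mean of each gene, for follicular, memory (day 7 and day 40), germinal center (GC), plasma and stimulated follicular arrays. The open diamond is memory day 7 replicate 1: it lies near the germinal center arrays for the germinal center program (4.97, with replicates 2 and 3 at 0.22 and 0.32), above the other memory arrays for mitosis and DNA replication, and beside them for memory markers and the plasma cell program.

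Genes of the germinal center program separated into those raised on each memory array and those raised in replicate 1 alone. Of 17 tested, 7 were higher and 0 lower (backgrounds 9.18% and 9.2%), with a median of 2.47. Without replicate 1, 6 were higher and 1 lower, and the median fell to 0.28. Relative to the follicular mean, the median member stood at 4.97, 0.22 and 0.32 in memory replicates 1, 2 and 3. In memory cells of day 40 it stood at 3.17, 3.09 and 1.20, and in germinal center cells of day 7 at 5.07 to 5.70. Plxnb2, a receptor for semaphorins, read 2.55, 4.67 and 5.05 in the follicular arrays and 10.38, 10.31 and 10.20 in the memory arrays, a change of 6.21 ± 0.73 (adjusted p = 2.95e-06) and, without memory replicate 1, 6.17 ± 0.84 (adjusted p = 2.38e-05). Fas, the death receptor CD95, was also a depletion antigen for the follicular cells and changed by 4.35 ± 0.53, 4.0 ± 0.57 without replicate 1. Neil1, a DNA glycosylase, read 9.74, 10.46 and 10.26 in the follicular arrays and 13.94, 13.18 and 13.35 in the memory arrays. Basp1, a membrane-bound signalling protein, read 8.84, 7.40 and 9.04 in the follicular arrays and 13.40, 11.26 and 12.49 in the memory arrays. Both were called with and without replicate 1. S1pr2, a receptor that confines cells to the germinal center, was uneven, at 10.81, 4.99 and 7.76 in the memory arrays against 3.12, 3.11 and 3.27 in the follicular arrays (4.69 ± 0.91, 3.21 ± 0.67 without replicate 1). Hmmr, a receptor for hyaluronan that is also a mitotic gene, read 10.71, 6.34 and 7.19 (5.75 ± 0.93, 4.43 ± 0.80 without replicate 1), and 2 other probe sets above background were higher by 2.16 and 2.70. The probe set kept when cross-hybridizing names were dropped lay near the bottom of the scale in both groups, with means of 2.16 and 2.42 (0.26, not called).

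Defining members of the program differed between the fits, with Rgs13 called with replicate 1 only and Bcl6 without it only. Rgs13, a regulator of G protein signals in germinal center cells, read 3.84, 5.14 and 4.96 in the follicular arrays and 10.82, 5.47 and 6.15 in the memory arrays, and its call of 2.83 ± 0.89 ended without memory replicate 1 (1.16 ± 0.48, adjusted p = 0.0791) or follicular replicate 1 (2.43). Bcl6, the master repressor of the germinal center, was the member called lower. It read 13.75, 13.54 and 13.56 in the follicular arrays and 13.04, 12.57 and 12.28 in the memory arrays, a change of -0.99 ± 0.18 that missed the minimum size, and -1.19 ± 0.17 without replicate 1 (adjusted p = 3.53e-05). Another of its probe sets changed by -1.91 with all arrays.

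Memory markers were higher in memory cells with or without replicate 1. Of 12 tested, 10 were higher and 0 lower, against a background of 9.18%, and the same counts held without replicate 1. The median change was 2.67, and 2.80 without it. Cxcr3 (chromosome X), a receptor for interferon-induced chemokines, read 2.40, 2.78 and 2.79 in the follicular arrays and 10.74, 11.15 and 10.62 in the memory arrays, a change of 8.18 ± 0.25 (adjusted p = 1.22e-14) and, without memory replicate 1, 8.23 ± 0.28 (adjusted p = 4.29e-13). Nt5e (chromosome 9), which encodes the ectoenzyme CD73, read 10.51, 9.34 and 10.59 in memory cells and 2.15 in each follicular array, a rise of at least 8.0 ± 0.33 (7.82 ± 0.36 without replicate 1). Zbtb32 (chromosome 7), a repressor that restrains recall responses, read 2.22, 2.16 and 2.21 in the follicular arrays and 8.89, 10.50 and 9.93 in the memory arrays, at least 7.58 ± 0.35 higher (8.02 ± 0.33). The groups were far apart in all 3.

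The surface markers commonly used to divide memory subsets rose as well. Cd80, a ligand of CD28 and CTLA-4, read 2.39, 2.25 and 2.27 in the follicular arrays and 6.62, 6.54 and 6.70 in the memory arrays, a rise of at least 4.32 ± 0.47 (again 4.32 ± 0.54 without replicate 1). Pdcd1lg2, which encodes PD-L2, read 8.03, 8.85 and 8.61 in the follicular arrays and 10.54, 10.85 and 10.92 in the memory arrays, a change of 2.27 ± 0.50, 2.39 ± 0.57 without replicate 1. Cd44, a hyaluronan receptor of antigen-experienced lymphocytes, changed by 1.92 ± 0.15, 1.85 ± 0.16 without replicate 1, and Ptpn22, a phosphatase that dampens receptor signals, by 1.87 ± 0.31, 2.22 ± 0.29 without replicate 1. Vsir, a checkpoint receptor, changed by 1.59 ± 0.55, 2.14 ± 0.55 without replicate 1, and its call ended without memory replicate 2 (1.18) or 3 (1.45), or follicular replicate 2 (1.40) or 3 (1.52). In Vsir the groups overlapped, since replicate 1 read 6.67 and the follicular arrays 6.71, 5.8 and 6.05. Cd38, a marker of the sort, is not analysed here.

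Of 18 transcription regulators described in memory B cells, 6 were higher and 1 lower (backgrounds 9.18% and 9.2%), and without replicate 1 again 6 and 1. The lower member was not the same gene in both fits. Ahr, the receptor for aryl hydrocarbons, read 5.11, 7.39 and 6.14 in the follicular arrays and 12.24, 12.74 and 12.29 in the memory arrays, a change of 6.21 ± 0.52 (adjusted p = 4.31e-08) and, without memory replicate 1, 6.30 ± 0.60 (adjusted p = 3.96e-07). Bhlhe40 and Bhlhe41, related repressors of the helix-loop-helix family, were both higher. Bhlhe40 changed by 1.64 ± 0.35, 1.96 ± 0.36 without replicate 1, and Bhlhe41 by at least 2.28 ± 0.51, 2.21 ± 0.58 without replicate 1. Zbtb20, a zinc finger repressor, read 11.78, 12.02 and 12.24 in the follicular arrays and 13.73, 13.91 and 13.79 in the memory arrays. Tbx21, which encodes T-bet, read 4.45, 4.32 and 4.43 in the follicular arrays and 5.36, 5.84 and 6.31 in the memory arrays, a change of 1.44 ± 0.35, 1.68 ± 0.38 without replicate 1. Hhex, a homeobox factor required for memory cells, read 13.35, 13.17 and 13.19 in the follicular arrays and 10.35, 11.81 and 11.41 in the memory arrays. It was called lower with all arrays (-2.05 ± 0.61, adjusted p = 0.0151) and not without replicate 1 (-1.63 ± 0.67, adjusted p = 0.0793). Bach2, a repressor that favours memory over plasma cell fate, read 12.54, 13.56 and 13.47 in the follicular arrays and 13.41, 12.23 and 11.86 in the memory arrays and was lower only without replicate 1 (-0.69 ± 0.36, or -1.15 ± 0.33 without it, adjusted p = 0.0133). Klf2, a factor of resting lymphocytes, showed no call in either fit (-0.44 ± 0.57, 0.02 ± 0.60 without replicate 1).

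Part of the plasma cell program was higher in memory cells. Of 18 members tested 11 were higher and 0 lower (background 9.18%), with the same counts without replicate 1, and medians of 1.67 and 1.5. The same median was 7.65 to 7.73 in plasma cells, so the memory arrays, at 1.65, 1.64 and 1.39, stood far below them. Slpi (chromosome 2), a secreted protease inhibitor, read 3.26, 3.26 and 2.93 in the follicular arrays and 13.78, 13.55 and 13.14 in the memory arrays, a change of 10.34 ± 0.20, 10.20 ± 0.22 without replicate 1. Jchain, the joining chain of secreted antibody, read 7.73, 5.48 and 8.75 in the follicular arrays and 14.39, 13.90 and 13.89 in the memory arrays, a change of 6.74 ± 0.64 (adjusted p = 2.28e-07) and, without memory replicate 1, 6.58 ± 0.73 (adjusted p = 2.55e-06). Edem1, which sorts misfolded proteins for degradation, changed by 2.66 ± 0.21, 2.73 ± 0.24 without replicate 1, and Tnfrsf17, the receptor BCMA, by at least 2.79 ± 0.18, 2.86 ± 0.20 without replicate 1.

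The regulators of the program were uneven. Prdm1, which encodes the repressor Blimp-1 of plasma cells, read 3.66, 3.32 and 3.30 in the follicular arrays and 3.72, 6.31 and 5.92 in the memory arrays, so that replicate 1 lay with the follicular arrays. Its change was 1.89 ± 0.55 (adjusted p = 0.0125) and, without memory replicate 1, 2.69 ± 0.46 (adjusted p = 0.000247), and the call ended without memory replicate 2 (1.39) or memory replicate 3 (1.59). Irf4, which drives plasma cell fate at high levels, was not called in either fit (0.44 ± 0.14, 0.58 ± 0.14 without replicate 1), while another of its probe sets, dimmer, was higher by 2.76. Nor was Xbp1, the factor of secretory expansion (-0.51 ± 0.20, -0.47 ± 0.23 without replicate 1). Sdc1, the gene of the plasma cell antigen CD138, pointed the other way. It changed by -1.43 with all arrays and was not called. Other Sdc1 probe sets above background changed by -1.55 and -3.29. CD138 was also a depletion antigen for the follicular cells. Eaf2 read 5.51, 7.17 and 6.67 in the follicular arrays and 12.26, 9.61 and 9.81 in the memory arrays (4.11 ± 0.50, 3.26 ± 0.34 without replicate 1), highest in replicate 1. Among 22 endoplasmic reticulum chaperones and transport genes, 2 were higher and 0 lower, near the background, and 3 and 0 without replicate 1. Without memory replicate 2, memory replicate 3 or follicular replicate 1 the count was 1. Dnajb9, a chaperone of the endoplasmic reticulum, changed by 1.11 ± 0.20, 1.28 ± 0.21 without replicate 1, and by 0.94 without memory replicate 3, which ends the call.

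Few genes of B cell identity were called. Of 20 tested 0 were higher and 4 lower (background 9.2% lower), and 3 lower without replicate 1. Pax5, the factor that keeps B cell identity, read 5.95, 6.62 and 6.47 in the follicular arrays and 4.08, 3.81 and 4.08 in the memory arrays. Its change was -2.36 ± 0.50 (adjusted p = 0.00129) and, without memory replicate 1, -2.40 ± 0.58 (adjusted p = 0.00409). The other Pax5 probe set lay near the bottom of the scale in both groups, with means of 2.16 and 2.15, so this fall rests on 1 probe set. Cr2, the complement receptor CD21, read 13.21, 13.08 and 13.01 in the follicular arrays and 12.11, 10.65 and 11.18 in the memory arrays, a change of -1.79 ± 0.29, -2.19 ± 0.26 without replicate 1, and Cd72, an inhibitory coreceptor, changed by -1.33 ± 0.18, -1.49 ± 0.19 without replicate 1. Fcer2a, the low-affinity IgE receptor CD23, changed by -1.02 ± 0.19, -0.99 ± 0.22 without replicate 1, just past and just short of the minimum size, and by -0.97 without follicular replicate 2. Cr2 and Fcer2a encode antigens by which the follicular cells were sorted, so their direction is tied to the sort. Changes of the antigen receptor genes Cd79a (-0.22 ± 0.11, -0.19 ± 0.12 without replicate 1) and Cd79b (-0.27 ± 0.09, -0.30 ± 0.10 without replicate 1) and of Ms4a1, which encodes CD20 (0.01 ± 0.12, -0.01 ± 0.13 without replicate 1), were not called.

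Antigen receptor signalling genes were called higher at about the background rate of 9.18%, with 2 of 22 higher and 0 lower in either fit. Cd5, a coreceptor that dampens antigen receptor signals, read 2.39, 2.63 and 2.63 in the follicular arrays and 5.59, 6.57 and 6.43 in the memory arrays, a change of 3.65 ± 0.38 (adjusted p = 6.65e-07) and, without memory replicate 1, 3.95 ± 0.40 (adjusted p = 9.57e-07), although cells positive for CD5 had been depleted from both populations. Nfatc1, a calcium-dependent transcription factor, changed by 1.74 ± 0.20, 1.76 ± 0.23 without replicate 1, while another of its probe sets changed by -1.16. In class II presentation 1 of 12 was lower (8.33%, background 9.2%) and 0 without replicate 1. That gene was Ciita, the activator of class II genes (-1.03 ± 0.20, -0.75 ± 0.17 without replicate 1, -0.95 without follicular replicate 2, which also ends the call). Its other probe sets changed by -0.78 and by -4.32, the latter from a mean of 10.85 to 6.53, so the size of its fall is uncertain.

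Costimulatory ligands and receptors changed in both directions, with 4 of 19 higher and 2 lower (21.1% and 10.5%, backgrounds 9.18% and 9.2%), and 4 and 1 without replicate 1. Cd86, the partner of CD80 in costimulating T cells, read 8.20, 9.12 and 9.05 in the follicular arrays and 13.42, 13.03 and 13.15 in the memory arrays, a change of 4.41 ± 0.28 (adjusted p = 9.47e-10) and, without memory replicate 1, 4.30 ± 0.32 (adjusted p = 1.67e-08). Tnfsf9, the ligand of 4-1BB, read 2.15, 3.54 and 3.36 in the follicular arrays and 7.62, 7.22 and 6.97 in the memory arrays, a change of 4.25 ± 0.44, 4.08 ± 0.49 without replicate 1, and Tnfrsf1b, a receptor for tumour necrosis factor, changed by 3.54 ± 0.45, 3.63 ± 0.52 without replicate 1. Cd274, which encodes PD-L1, rose less (1.05 ± 0.31, 1.27 ± 0.33 without replicate 1), and its call ended without memory replicate 2 or 3 (0.93 each) or follicular replicate 2 (0.96). Icosl, the ligand by which B cells engage follicular helper T cells, fell on each array, from 14.38, 14.30 and 14.41 to 12.09, 10.56 and 11.10, a change of -3.11 ± 0.31 (adjusted p = 3.73e-07) and, without memory replicate 1, -3.53 ± 0.27 (adjusted p = 3.04e-08).

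Ctla4, Havcr1, Il1r2, Cish and Cd59a were singled out after their values were seen. Ctla4, an inhibitory receptor best known from T cells, read 3.58, 2.48 and 2.24 in the follicular arrays and 9.54, 10.71 and 10.21 in the memory arrays, a change of 7.39 ± 0.42 (adjusted p = 2.26e-10) and, without memory replicate 1, 7.69 ± 0.46 (adjusted p = 1.01e-09). Of 11 T cell markers 7 lay at background on all 6 arrays and 4 did not, and their summed linear signal was 10516 to 12202 in follicular and 15146 to 15710 in memory arrays. The part of T cell RNA in the value of Ctla4 was not tested. Havcr1, which encodes TIM-1, read 2.75, 3.28 and 2.77 in the follicular arrays and 10.69, 10.17 and 9.87 in the memory arrays (7.31 ± 0.25, 7.09 ± 0.25 without replicate 1), and Il1r2, a decoy receptor for interleukin 1, 2.41, 2.16 and 2.15 in the follicular arrays and 10.83, 9.29 and 10.69 in the memory arrays (at least 8.03 ± 0.80, 7.75 ± 0.91 without replicate 1), from a group at background. Cish, a feedback inhibitor of cytokine signals, read 9.06, 10.25 and 9.71 in memory cells and 2.15 in each follicular array, and Cd59a, an inhibitor of complement lysis, read 5.47, 2.58 and 2.40 in the follicular arrays and 9.99, 11.01 and 10.47 in the memory arrays. In these 5 genes memory and follicular arrays did not overlap, but they were chosen with these values in view. Of the 906 higher and 874 lower genes called in both fits, 1734 likewise did not overlap.

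Receptors that direct migration also divided. Of 14 tested, 4 were higher and 2 lower (28.6% and 14.3%, backgrounds 9.18% and 9.2%), and 4 and 1 without replicate 1. Beside Ackr2, Cxcr3 and S1pr2, the sphingosine-1-phosphate receptor S1pr3, known from marginal zone B cells, read 7.95, 8.59 and 8.22 in the follicular arrays and 11.30, 12.30 and 11.56 in the memory arrays, a change of 3.47 ± 0.31 (adjusted p = 1.05e-07) and, without memory replicate 1, 3.68 ± 0.34 (adjusted p = 2.72e-07). Cnr2, a cannabinoid receptor, was lower (-1.28 ± 0.31, -1.23 ± 0.35 without replicate 1). Ccr9, a gut-homing receptor, read 5.85, 4.11 and 8.78 in the follicular arrays and 2.67, 3.04 and 3.55 in the memory arrays, and its call ended without replicate 1 (-3.16 ± 1.03, -2.95 ± 1.18 without replicate 1, adjusted p = 0.0718). It also ended without memory replicate 2 (-3.14) or follicular replicate 3 (-1.89). The receptors for follicle entry and egress, Cxcr5 (0.38 ± 0.26, 0.42 ± 0.29 without replicate 1) and S1pr1 (-0.68 ± 0.57, 0.04 ± 0.53 without replicate 1), were not called. Of 13 regulators of G protein signalling, 5 were higher and 1 lower (38.5% and 7.69%), and 4 and 1 without replicate 1. Rgs10 read 5.62, 6.62 and 6.56 in the follicular arrays and 11.53, 10.59 and 10.26 in the memory arrays (4.53 ± 0.36, 4.16 ± 0.37 without replicate 1) and Rgs2 changed by 2.05 ± 0.25, 1.77 ± 0.25 without replicate 1. Grk5, a kinase that desensitizes receptors, changed by 2.85 ± 0.50, 2.97 ± 0.58 without replicate 1. Rgs18 went the other way, from 7.81, 8.32 and 7.64 to 5.40, 2.34 and 2.18, a change of -4.62 ± 0.59 (adjusted p = 7.58e-06) and, without memory replicate 1, -5.66 ± 0.38 (adjusted p = 4.43e-09).

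Adhesion genes had 5 of 18 higher and 2 lower in either fit (27.8% and 11.1%, backgrounds 9.18% and 9.2%). Itgb1, the beta chain of very late antigen integrins, read 7.74, 6.26 and 5.64 in the follicular arrays and 9.31, 9.95 and 9.55 in the memory arrays, a change of 3.06 ± 0.40, 3.20 ± 0.45 without replicate 1. Cd9, a tetraspanin, read 3.49, 4.63 and 4.70 in the follicular arrays and 7.37, 8.83 and 8.52 in the memory arrays, a change of 3.97 ± 0.64, 4.40 ± 0.69 without replicate 1. Itgb2, the beta chain of LFA-1, changed by 1.08 ± 0.16, 1.13 ± 0.18 without replicate 1, and Icam2, a ligand of it, by -1.10 ± 0.23, -1.29 ± 0.24 without replicate 1. Without memory replicate 3 the change of Icam2 was -0.97 and not called. Itgb3, the beta chain of the vitronectin receptor, depended on replicate 1 in size, at 10.02, 6.03 and 6.92 in the memory arrays against 9.53, 9.82 and 9.73 in the follicular arrays (-2.04 ± 0.67, -3.22 ± 0.43 without replicate 1). Its call ended without memory replicate 2 (-1.22) or memory replicate 3 (-1.67), and without follicular replicate 2 (-1.97) or 3 (-2.02), so that the count of lower genes was 1, or 0 without memory replicate 3. Among 12 secreted chemokines and cytokines, 1 was higher and 3 lower (8.33% and 25.0%), and 0 and 2 without replicate 1. Without follicular replicate 1 only 1 was lower, and without memory replicate 2 there were 2 higher. Ccl4, a chemokine of activated B cells, read 6.08, 3.79 and 5.77 against 2.15 in each follicular array, and its call ended without replicate 1 (adjusted p = 0.0574).

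Of 19 cytokine receptors 4 were higher (21.1%) and 3 lower (15.8%) in either fit, against 9.18% and 9.2% of all genes. The subunits of the interleukin 6 receptor rose together. Il6st, the shared signalling chain gp130, read 6.98, 7.44 and 7.94 in the follicular arrays and 9.92, 10.38 and 10.58 in the memory arrays, a change of 2.84 ± 0.38 (adjusted p = 1.08e-05) and, without memory replicate 1, 3.03 ± 0.42 (adjusted p = 2.80e-05). Il6ra, the binding chain, read 7.59, 9.28 and 9.19 in the follicular arrays and 10.09, 10.78 and 11.40 in the memory arrays, a change of 2.07 ± 0.51 (adjusted p = 0.00397) and, without memory replicate 1, 2.40 ± 0.56 (adjusted p = 0.0031). Ifngr1, a chain of the interferon gamma receptor, changed by 1.58 ± 0.46, 1.63 ± 0.53 without replicate 1. Il10rb fell from 11.13, 11.10 and 11.06 to 8.45, 9.11 and 9.10 (-2.21 ± 0.28, -1.99 ± 0.30 without replicate 1), and Il27ra, the receptor of interleukin 27, changed by -1.63 ± 0.31, -1.24 ± 0.28 without replicate 1. Il10ra was called lower with replicate 1 (-1.22 ± 0.32) and Il21r, a receptor for a helper T cell cytokine, without it (-1.0 ± 0.36).

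Toll-like receptor genes had 1 of 16 higher (6.25%) and 3 lower (18.8%) in either fit, against 9.18% and 9.2% of all genes. Tlr4, the receptor for endotoxin, read 6.60, 8.23 and 7.92 in the follicular arrays and 3.08, 4.43 and 2.99 in the memory arrays, a change of -4.08 ± 0.80 (adjusted p = 0.000627) and, without memory replicate 1, -3.87 ± 0.91 (adjusted p = 0.0036). Its coreceptor Ly96, also named MD-2, went the other way, at 8.07, 8.76 and 8.0 in the follicular arrays and 10.48, 10.70 and 10.11 in the memory arrays (2.15 ± 0.30, 2.13 ± 0.34 without replicate 1). Tlr2 changed by -1.94 ± 0.46, -1.35 ± 0.42 without replicate 1, and Tirap, the adaptor that both receptors use, by -1.51 ± 0.21, -1.65 ± 0.23 without replicate 1.

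Interferon-stimulated genes held the largest share of lower calls among the lists. Of 19 tested 0 were higher and 9 lower, against backgrounds of 9.18% and 9.2%, and 2 were higher and 6 lower without replicate 1. The median change was -0.68, and -0.12 without replicate 1. Rtp4 (chromosome 16), a chaperone of G protein coupled receptors, read 9.05, 9.17 and 9.20 in the follicular arrays and 3.21, 4.14 and 3.21 in the memory arrays, a change of -5.62 ± 0.36 (adjusted p = 9.25e-10) and, without memory replicate 1, -5.46 ± 0.40 (adjusted p = 1.63e-08). Oasl1, which limits translation of an interferon regulator, read 6.70, 7.61 and 8.03 in the follicular arrays and 3.08, 2.61 and 2.79 in the memory arrays, a change of -4.62 ± 0.34 (adjusted p = 7.85e-09) and, without memory replicate 1, -4.75 ± 0.39 (adjusted p = 5.89e-08). Ifit1, which binds foreign RNA ends, read 2.85, 5.64 and 4.97 in the follicular arrays and 2.16, 2.16 and 2.16 in the memory arrays. Ifit2, of the same family, read 8.66, 9.44 and 9.09 in the follicular arrays and 6.88, 7.40 and 6.90 in the memory arrays. Usp18, which turns interferon signals off, changed by -2.23 ± 0.62, -1.95 ± 0.69 without replicate 1, and Stat2, a transducer of type I interferon signals, by -1.23 ± 0.21, -1.10 ± 0.23 without replicate 1.

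In other members replicate 1 was the lowest memory array. Ifih1, an RNA sensor, read 2.55, 2.95 and 3.31 in the follicular arrays and 2.62, 5.10 and 5.36 in the memory arrays, a change of 1.42 ± 0.54 (adjusted p = 0.0504) and, without memory replicate 1, 2.29 ± 0.40 (adjusted p = 0.000306). Oas3, a synthetase that activates RNA decay, read 2.22, 4.39 and 4.03 in the follicular arrays and 2.46, 5.26 and 4.84 in the memory arrays. Both were called higher only without replicate 1. Ifit3, Oasl2 and Oas2 were called lower only with it. Relative to the follicular mean the median member stood at -1.49, -0.12 and -0.21 in memory replicates 1, 2 and 3, at -2.33 to -2.02 in germinal center cells, and at -0.63, 0.38 and 0.17 in the follicular arrays themselves.

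The motif GAAANNGAA, the core of the interferon-stimulated response element, was found on either strand in 9 of 14 of these genes with a promoter (64.3%), and in 8.5% of 9102 tested genes. Among members called lower in both fits it was found in 2 of 4. The promoter of Ifit1 (chr19:34640639-34640938, plus strand, RefSeq, GRCm38.p6), whose memory arrays each read 2.16, and that of Stat2 (chr10:128270248-128270547, plus strand) carry it, shown in capitals.
Ifit1: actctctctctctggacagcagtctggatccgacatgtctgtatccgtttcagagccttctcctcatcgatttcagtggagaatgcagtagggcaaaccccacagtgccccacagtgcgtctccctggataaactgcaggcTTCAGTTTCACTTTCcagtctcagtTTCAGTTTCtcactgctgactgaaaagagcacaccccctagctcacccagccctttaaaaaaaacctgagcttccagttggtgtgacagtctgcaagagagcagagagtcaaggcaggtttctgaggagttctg
Stat2: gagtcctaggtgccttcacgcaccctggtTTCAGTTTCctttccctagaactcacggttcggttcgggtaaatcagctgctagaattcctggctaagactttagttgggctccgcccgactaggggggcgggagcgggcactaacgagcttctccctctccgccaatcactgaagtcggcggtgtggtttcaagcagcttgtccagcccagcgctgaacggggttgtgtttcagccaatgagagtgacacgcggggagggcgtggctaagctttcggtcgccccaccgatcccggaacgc

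Early response genes, which are induced soon after cells receive a signal and are also sensitive to how cells are isolated, were higher in memory cells. Of 23 tested, 13 were higher and 0 lower (background 9.18%), and 14 and 0 without replicate 1. The median change was 1.57, and 1.85 without replicate 1, which was the lowest memory array for the median member (1.01, against 1.72 and 1.99). In memory cells of day 40 the median member stood higher, at 2.40, 2.99 and 3.05, so the rise was not particular to day 7. It stood at 0.84 to 1.27 in plasma cells, 0.20 to 0.29 in germinal center cells of day 7 and 0.08 to 0.56 in stimulated follicular cells. The NR4A nuclear receptors, induced by antigen receptor signals, rose together. Nr4a3 (chromosome 4) read 4.47, 5.17 and 4.94 in the follicular arrays and 14.18, 13.73 and 14.10 in the memory arrays, a change of 9.14 ± 0.26, 9.05 ± 0.30 without replicate 1. Nr4a2 read 3.87, 3.51 and 3.57 in the follicular arrays and 11.76, 11.90 and 11.99 in the memory arrays, a change of 8.23 ± 0.29, 8.29 ± 0.33 without replicate 1. Nr4a1 read 8.01, 9.06 and 8.71 in the follicular arrays and 12.98, 13.42 and 13.51 in the memory arrays, a change of 4.71 ± 0.36, 4.87 ± 0.40 without replicate 1. None of the 3 overlapped between the groups.

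AP-1 and related factors were unequal. Fosl2 (chromosome 5) rose by at least 9.38 ± 0.63, 9.27 ± 0.72 without replicate 1. Fosb read 3.48, 4.01 and 4.88 in the follicular arrays and 11.01, 11.95 and 11.99 in the memory arrays (7.53 ± 1.12, 7.85 ± 1.28 without replicate 1). Junb changed by 2.65 ± 0.30, 2.70 ± 0.34 without replicate 1, and Atf3 by 5.82 ± 0.72, 6.08 ± 0.81 without replicate 1. Fos (0.83 ± 0.43, 0.95 ± 0.49 without replicate 1), Jun (0.24 ± 0.62, 0.53 ± 0.70 without replicate 1) and Egr1 (0.46 ± 0.32, 0.46 ± 0.37 without replicate 1), which belong to the same class, were not called. Myc, the growth regulator, read 10.14, 10.15 and 10.27 in the follicular arrays and 11.67, 13.07 and 12.96 in the memory arrays, a change of 2.38 ± 0.63 (adjusted p = 0.00671) and, without memory replicate 1, 2.83 ± 0.68 (adjusted p = 0.0042), with replicate 1 the lowest memory array. Egr2, a zinc finger factor, read 10.97, 10.55 and 11.36 in the follicular arrays and 11.96, 13.47 and 13.43 in the memory arrays (1.99 ± 0.44, 2.49 ± 0.43 without replicate 1). Maff, a small bZIP factor, read 2.90, 2.91 and 3.43 in the follicular arrays and 7.37, 7.96 and 8.31 in the memory arrays (4.80 ± 0.44, 5.05 ± 0.49 without replicate 1). The serum response element core named CArG box was found in 2 of 18 early response genes with a promoter (11.1%), Egr2 and Zfp36, which was not called, against 1.64% of 9102 tested genes. Of the 5 promoters that hold it 4 belong to Egr2, and several of these overlap. The cyclic AMP response element TGACGTCA was found in 2 of the 18 genes (11.1%), against 3.68%. A promoter of Egr2 (chr10:67537316-67537615, plus strand, 1 of 5 in the table) is shown with its CArG box in capitals.
Egr2: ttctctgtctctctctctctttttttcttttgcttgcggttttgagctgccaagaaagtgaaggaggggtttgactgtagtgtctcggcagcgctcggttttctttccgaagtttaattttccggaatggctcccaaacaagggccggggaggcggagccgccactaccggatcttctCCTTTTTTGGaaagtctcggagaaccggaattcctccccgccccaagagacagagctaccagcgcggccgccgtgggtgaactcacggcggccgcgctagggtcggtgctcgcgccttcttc

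Genes of heat shock and tissue dissociation moved beside the early response genes. Of 17 tested, 6 were higher and 0 lower (backgrounds 9.18% and 9.2%), and 5 and 0 without replicate 1, with medians of 0.75 and 0.66. Hspa1b read 3.16, 5.51 and 4.68 in the follicular arrays and 10.39, 12.35 and 13.75 in the memory arrays, a change of 7.71 ± 0.84 (adjusted p = 1.22e-06) and, without memory replicate 1, 8.60 ± 0.84 (adjusted p = 5.50e-07). Its near-identical copy Hspa1a read 2.75, 5.45 and 8.95 against 2.15 in each follicular array, and signal between the copies cannot be assigned with certainty. The call of Hspa1a ended without memory replicate 3 (1.95). Mt2, a metallothionein, read 4.32, 3.54 and 3.95 in the follicular arrays and 9.47, 7.54 and 6.98 in the memory arrays. Bag3, a cochaperone, read 2.15, 2.15 and 2.36 in the follicular arrays and 3.30, 5.48 and 5.06 in the memory arrays. Their part in the early response values was not tested.

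Signalling modules downstream of receptors were called in both directions. In the NF-kB list, 4 of 16 were higher and 2 lower in either fit (25.0% and 12.5%, backgrounds 9.18% and 9.2%). Rel, the subunit c-Rel, read 9.33, 9.72 and 10.01 in the follicular arrays and 12.08, 12.70 and 12.92 in the memory arrays, a change of 2.88 ± 0.25 (adjusted p = 7.84e-08) and, without memory replicate 1, 3.12 ± 0.26 (adjusted p = 6.76e-08). Its feedback inhibitors Tnfaip3, which encodes A20, and Nfkbid were higher. Tnfaip3 changed by 2.04 ± 0.32, 2.29 ± 0.34 without replicate 1, and Nfkbid by 1.57 ± 0.29, 1.79 ± 0.32 without replicate 1. Traf1, a signalling adaptor, changed by 2.24 ± 0.20, 2.36 ± 0.22 without replicate 1. Bcl3 (-1.24 ± 0.30, -1.17 ± 0.34 without replicate 1) and Map3k14, the kinase of the alternative pathway (-1.30 ± 0.43, -1.37 ± 0.49 without replicate 1), were lower. The call of Map3k14 ended without memory replicate 2 (-1.13), follicular replicate 2 (-1.04) or follicular replicate 3 (-1.32).

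In the MAP kinase list 4 of 14 were higher and 4 lower in either fit, each share above its background. The higher members were phosphatases. Dusp5, which acts on ERK in the nucleus, read 5.32, 8.30 and 8.14 in the follicular arrays and 13.02, 11.77 and 12.24 in the memory arrays, a change of 5.09 ± 0.62, 4.75 ± 0.68 without replicate 1. Dusp16, Dusp10 and Dusp4 changed by 1.86 ± 0.27, 1.77 ± 0.37 and 1.44 ± 0.19 (1.74 ± 0.30, 1.93 ± 0.42 and 1.30 ± 0.20 without replicate 1). Another p38 kinase, Mapk11, was lower beside Mapk12, at 12.37, 12.25 and 12.21 in the follicular arrays and 10.22, 10.54 and 10.62 in the memory arrays (-1.82 ± 0.27, -1.70 ± 0.30 without replicate 1). The cytoplasmic ERK phosphatase Dusp6 was lower too, at 11.83, 11.69 and 11.88 in the follicular arrays and 9.23, 8.48 and 10.12 in the memory arrays (-2.52 ± 0.57, -2.50 ± 0.65 without replicate 1).

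Of 16 PI3K genes 2 were higher and 2 lower in either fit (12.5% each), near the 9.18% and 9.2% of all genes. Among the called members, the regulatory subunits of PI3K gamma, Pik3r6 and Pik3r5, were higher, and the catalytic subunit Pik3cg was lower, at 12.51, 12.22 and 12.44 in the follicular arrays and 11.39, 10.41 and 10.52 in the memory arrays (-1.62 ± 0.31, -1.93 ± 0.31 without replicate 1). Pik3r5 changed by 1.43 ± 0.46, 1.87 ± 0.47 without replicate 1, a call that ended without memory replicate 2 (1.28), memory replicate 3 (1.13) or follicular replicate 2 (1.35).

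The cyclic nucleotide and adenosine list had 6 of 14 members higher and 1 lower (42.9% and 7.14%, backgrounds 9.18% and 9.2%), and 5 and 2 without replicate 1. Crem, a repressor and activator at cyclic AMP response elements, read 3.63, 6.51 and 6.2 in the follicular arrays and 13.35, 13.02 and 12.91 in the memory arrays, a change of 7.65 ± 0.52 (adjusted p = 2.25e-09) and, without memory replicate 1, 7.52 ± 0.59 (adjusted p = 3.87e-08). Entpd1, the ectoenzyme CD39 that acts before CD73 in making adenosine, read 4.05, 6.71 and 6.0 in the follicular arrays and 7.77, 8.32 and 7.94 in the memory arrays, a change of 2.42 ± 0.53, 2.54 ± 0.60 without replicate 1. Ada, which removes adenosine, read 3.12, 4.26 and 5.29 in the follicular arrays and 11.70, 8.01 and 8.35 in the memory arrays, a change of 5.13 ± 0.77, 3.96 ± 0.62 without replicate 1, with replicate 1 the highest. Phosphodiesterases went both ways, with Pde8a (1.96 ± 0.40, 2.29 ± 0.42 without replicate 1) and Pde3b (1.22 ± 0.20, 1.24 ± 0.23 without replicate 1) higher and Pde2a the lower member named among the largest falls.

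Calcium-binding, annexin and galectin genes, common in effector lymphocytes, were higher. Of 20 tested, 8 were higher and 0 lower in either fit (backgrounds 9.18% and 9.2%), with medians of 0.81 and 0.98. S100a4 (chromosome 3), a calcium-binding protein of motile cells, read 2.15 in each follicular array and 10.21, 11.39 and 11.08 in memory cells, a rise of at least 8.74 ± 0.50 (adjusted p = 2.28e-10) and, without memory replicate 1, 9.09 ± 0.55 (adjusted p = 1.16e-09). Emp1, a membrane protein, read 2.15, 2.15 and 2.16 in the follicular arrays and 6.60, 8.03 and 7.70 in the memory arrays, at least 5.29 ± 0.44 higher (5.71 ± 0.45 without replicate 1). S100a6 read 8.05, 9.16 and 8.62 in the follicular arrays and 12.83, 13.64 and 13.52 in the memory arrays, a change of 4.72 ± 0.75, 4.97 ± 0.85 without replicate 1. Anxa2, an annexin, read 5.95, 6.92 and 7.40 in the follicular arrays and 12.86, 11.73 and 11.65 in the memory arrays, a change of 5.32 ± 0.49, 4.93 ± 0.53 without replicate 1. Lgals3, a galectin, read 3.32, 6.71 and 5.02 in the follicular arrays and 8.88, 10.08 and 10.05 in the memory arrays, a change of 4.65 ± 0.54, 5.05 ± 0.59 without replicate 1. Vim, which encodes vimentin (0.52 ± 0.21, 0.53 ± 0.24 without replicate 1), and S100a10 (0.28 ± 0.67, 0.32 ± 0.77 without replicate 1) were not called. Another probe set changed by 1.07 for Vim and by -1.64 for S100a10.

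In the BCL2 family 4 of 11 were higher and 0 lower in either fit (backgrounds 9.18% and 9.2%), and the 4 were proapoptotic members. Pmaip1, which encodes Noxa, read 9.94, 9.61 and 9.70 in the follicular arrays and 11.65, 12.19 and 12.20 in the memory arrays, a change of 2.26 ± 0.35 (adjusted p = 5.67e-05) and, without memory replicate 1, 2.44 ± 0.39 (adjusted p = 0.000104). Bcl2l11, which encodes Bim, read 11.69, 11.68 and 12.07 in the follicular arrays and 13.87, 13.79 and 13.79 in the memory arrays, a change of 2.0 ± 0.20 (adjusted p = 5.11e-07) and, without memory replicate 1, 1.98 ± 0.23 (adjusted p = 5.06e-06). Bad changed by 1.54 ± 0.31, 1.49 ± 0.36 without replicate 1 and Bak1 by 1.25 ± 0.35, 1.11 ± 0.40 without replicate 1. Without follicular replicate 1 the change of Bak1 was 0.70 and its call ended. The antiapoptotic genes Bcl2 (-0.58 ± 0.31, -0.41 ± 0.34 without replicate 1) and Mcl1 (-0.41 ± 0.10, -0.39 ± 0.11 without replicate 1) were not called. Probe sets of Bcl2 disagree in size. Of its 4 others, all above background, 2 about as bright in follicular cells changed by -3.07 (from a mean of 11.62 to 8.55) and -2.70 (from 11.80 to 9.10), and the other two by -0.45 and -0.33, so the level of Bcl2 is uncertain.

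Metabolic and housekeeping lists were called at rates from 0 to above the background. Of 19 respiratory chain genes 0 were higher and 0 lower in either fit at the minimum change of 1, and with no minimum 4 were higher and 2 lower. Of 17 glycolysis genes 2 were higher (11.8%, background 9.18%) and 0 lower, and 1 and 0 without replicate 1. Hk2, an inducible hexokinase, read 7.51, 8.10 and 8.35 in the follicular arrays and 10.80, 11.26 and 10.88 in the memory arrays, a change of 2.99 ± 0.20 (adjusted p = 1.82e-09) and, without memory replicate 1, 3.08 ± 0.22 (adjusted p = 1.46e-08). Cholesterol synthesis had 5 of 15 higher (33.3%) and 0 lower, and 3 and 0 without replicate 1. Cyp51, a demethylase of the pathway, read 9.86, 9.91 and 10.09 in the follicular arrays and 12.74, 11.68 and 11.79 in the memory arrays, a change of 2.12 ± 0.24, 1.78 ± 0.21 without replicate 1. Fdps, which makes farnesyl diphosphate, read 7.16, 7.37 and 7.95 in the follicular arrays and 11.61, 8.74 and 8.95 in the memory arrays, a change of 2.27 ± 0.57, 1.35 ± 0.43 without replicate 1. Replicate 1 was the highest memory array in both. Of 18 ribosome biogenesis genes 1 was higher and 1 lower in either fit, and Odc1, a target of MYC that starts polyamine synthesis, changed by 1.24 ± 0.16, 1.32 ± 0.18 without replicate 1.

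Smaller groups held single changes. Of 8 GIMAP GTPases 0 were higher and 2 lower (backgrounds 9.18% and 9.2%), and 1 lower without replicate 1. Gimap5, required for lymphocyte survival, read 10.09, 9.80 and 9.04 in the follicular arrays and 5.43, 7.32 and 6.99 in the memory arrays, a change of -3.06 ± 0.54, -2.49 ± 0.54 without replicate 1. In the Notch pathway 0 of 11 were higher and 2 lower in either fit, against 9.18% and 9.2% of all genes, a difference of few genes from the background. Hes1, a target of Notch, changed by -1.81 ± 0.41, -1.70 ± 0.47 without replicate 1, and Lfng, which modifies Notch receptors, by -2.13 ± 0.46, -2.15 ± 0.53 without replicate 1. Of 16 chromatin genes 2 were higher (12.5%) and 1 lower (6.25%) in either fit, near the background. Ezh2, the polycomb methyltransferase, read 10.21, 10.45 and 10.63 in the follicular arrays and 12.46, 11.81 and 11.72 in the memory arrays, a change of 1.57 ± 0.18 (adjusted p = 1.90e-06) and, without memory replicate 1, 1.33 ± 0.16 (adjusted p = 5.64e-06). Dnmt3a, a DNA methyltransferase, changed by 1.20 ± 0.18, 1.40 ± 0.17 without replicate 1, and Cbx7, a polycomb reader, by -2.21 ± 0.31, -1.93 ± 0.32 without replicate 1. Taken as the mean of its probe sets, Dnmt3a stood at 0.44 and was not called. Of 20 quiescence genes 1 was higher and 0 lower, and 0 and 1 without replicate 1, no more than the background. The higher gene, Klf4, lost its call when any of the 6 arrays was left out (changes of 1.03 to 1.51). Its other probe set was higher by more, 3.88, from a mean of 7.96 to 11.84.

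Marginal zone markers had 4 of 13 higher and 2 lower (30.8% and 15.4%, backgrounds 9.18% and 9.2%), and 4 and 1 without replicate 1. Beside Cd9 and S1pr3, Cd36, a scavenger receptor, read 5.78, 7.06 and 6.57 in the follicular arrays and 10.18, 10.15 and 9.44 in the memory arrays, a change of 3.45 ± 0.63, 3.33 ± 0.72 without replicate 1. Asb2, a ubiquitin ligase subunit, read 2.23, 2.17 and 2.30 in the follicular arrays and 4.99, 6.03 and 5.25 in the memory arrays, at least 3.19 ± 0.24 higher (3.41 ± 0.25 without replicate 1).

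The proteins used in sorting served as a check of the labels and are no findings. Ptprc, the gene of B220, read 14.26, 14.23 and 14.15 in the follicular arrays and 14.06, 14.12 and 14.01 in the memory arrays, while another of its probe sets changed by -1.49. Ighm, the chain whose protein was depleted from the memory cells, read 14.23, 14.31 and 14.34 in the follicular arrays and 11.59, 10.94 and 11.16 in the memory arrays, a change of -3.06 ± 0.19 (adjusted p = 8.59e-10) and, without memory replicate 1, -3.24 ± 0.20 (adjusted p = 1.54e-09). Other probe sets annotated to Ighm disagree. Of 8 such probe sets above background 6 were higher, by 5.42 or more, and 2 were lower. The 6 had follicular means of only 2.29 to 4.27. Of the 2, 1 changed by -3.00 from a follicular mean of 13.98, and the other by -1.63 from 5.37. Which heavy chain each probe set measures was not tested, so the level of this gene is uncertain. Cd93, the antigen of AA4.1, changed by -2.74 ± 0.62, -3.83 ± 0.40 without replicate 1. Spn, the gene of CD43, by which follicular cells had been depleted, read 8.53, 8.68 and 8.72 in the follicular arrays and 10.77, 12.45 and 11.75 in the memory arrays (3.01 ± 0.51, 3.46 ± 0.54 without replicate 1).

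Most markers of T cells, NK cells, erythroid cells and platelets lay at background, and myeloid markers differed between the groups. Cd3d, Cd3e, Cd3g, Cd4, Cd8b1, Zap70 and Thy1, 7 of 11 T cell markers, lay at background on all 6 arrays, as did 7 of 9 NK cell markers and 8 of 8 erythroid and platelet markers. The summed linear signal of the NK cell markers was 775 to 864 in follicular and 1019 to 1188 in memory arrays, and that of the T cell markers is given beside Ctla4. Of 18 myeloid markers, 5 (Csf1r, C1qa, C1qc, Fcgr3 and Cd5l) lay at background on all 6 arrays. Above the array median were 5, 7 and 7 in the follicular arrays and 11, 6 and 9 in the memory arrays. Their summed linear signal was 270.2, 673.1 and 643.6 in the follicular arrays and 27531, 7558 and 6053 in the memory arrays. Of 15 myeloid markers tested, 5 were higher and 0 lower (backgrounds 9.18% and 9.2%), and 4 and 0 without replicate 1, with medians of 1.39 and 0.02. Lyz2 and Lyz1, near-identical lysozyme genes, were higher with all arrays. Lyz2 read 11.17, 7.50 and 8.36 in the memory arrays, and Lyz1 11.60, 8.69 and 9.05. The call of Lyz1 ended without memory replicate 1 (4.33) or follicular replicate 1 (4.12). Cd68, a lysosomal protein, read 3.93, 6.54 and 6.47 in the follicular arrays and 10.60, 11.42 and 11 in the memory arrays (5.36 ± 0.63, 5.56 ± 0.72 without replicate 1). Mpeg1, a pore-forming protein, read 7.23, 8.61 and 8.37 in the follicular arrays and 11.35, 12 and 11.47 in the memory arrays (3.54 ± 0.60, 3.67 ± 0.69 without replicate 1). The part of myeloid RNA in the other results, the neutrophil genes of replicate 1 included, was not tested.

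**Figure D5:**
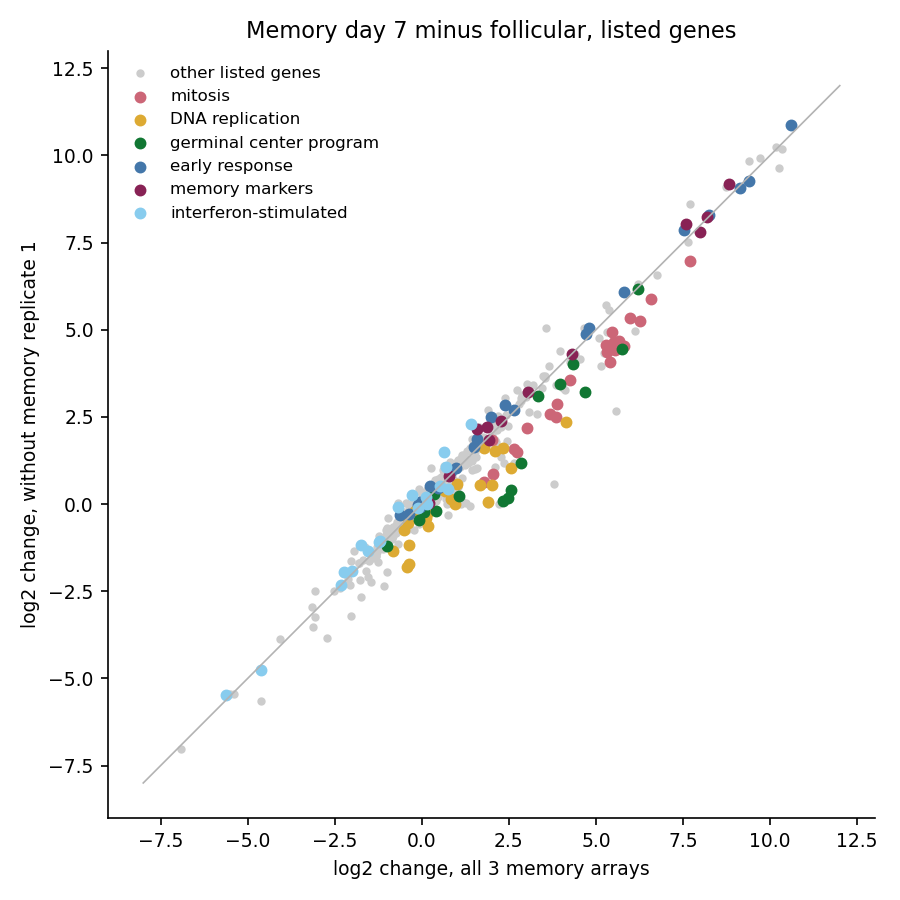
Log2 change of each listed gene between day 7 memory and follicular cells, with all 3 memory arrays (x axis) and without memory replicate 1 (y axis), coloured by list, with the line of equal values. Mitosis, DNA replication and several germinal center genes lie below the line, while memory markers and early response genes follow it, and some interferon-stimulated genes lie above it.

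Day 7 memory cells were also compared with 4 other populations, and of these they differed least from memory cells of day 40. Of the 11208 genes, 562 (5.01%) were called in either direction between day 7 and day 40, and 601 (5.36%) without memory day 7 replicate 1. Against germinal center cells of day 7 these counts were 2660 (23.7%) and 2887 (25.8%), against plasma cells of day 7 4101 (36.6%) and 4227 (37.7%), and against follicular cells stimulated for 6 h with antibodies to IgM and CD40 4788 (42.7%) and 4766 (42.5%). The 1029 higher and 1031 lower genes against follicular cells together lay between the day 40 memory and the germinal center counts. All of these comparisons share the day 7 memory arrays and are not independent. Marginal zone cells and germinal center cells of day 40 were not tested against them. The mean correlation of memory replicates 2 and 3 with marginal zone arrays was 0.965 for both, and with memory cells of day 40 it was 0.986 and 0.988.

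Genes raised over follicular cells fell into different patterns among these populations. Parm1 averaged 13.17 in memory cells of day 40 and 11.17 in germinal center cells, and 2.58 and 2.75 in plasma cells and stimulated follicular cells. The difference of day 7 memory from germinal center cells was 2.13 ± 0.16 (adjusted p = 1.09e-08) and, without memory replicate 1, 2.21 (adjusted p = 2.93e-08). Pik3r6 averaged 10.02 in memory cells of day 40 and between 2.15 and 2.18 in the other 3 populations. Against germinal center cells it was higher by at least 9.40 ± 0.23 (adjusted p = 2.02e-15) and, without memory replicate 1, 9.84 (adjusted p = 4.11e-21). Zbtb32 averaged 5.93 in day 40 memory cells and at most 2.71 in the other 3, and Ackr2 12.10 against at most 8.95. In populations outside these comparisons, Ackr2 averaged 12.67 in marginal zone cells, above the day 40 memory cells, and Parm1 averaged 12.58 in germinal center cells of day 40, so high levels of both were found outside memory cells. Pik3r6 and Zbtb32 averaged 2.15 and 2.22 in marginal zone cells and 2.15 and 2.57 in germinal center cells of day 40.

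Other rises were shared with an effector population or with stimulated cells. Nt5e averaged 10.66 in germinal center cells and 2.26 in plasma cells. Cxcr3 averaged 10.72 in plasma cells and 2.61 in germinal center cells, and Cxcr3 in day 7 memory cells differed from plasma cells by 0.11 ± 0.25 (adjusted p = 0.756) and, without memory replicate 1, 0.16 (adjusted p = 0.692). Slpi averaged 12.94 in germinal center and 15.68 in plasma cells. Nt5e and Cxcr3 thus divided germinal center from plasma cells in opposite ways. Nr4a3, Rgs1 and Tent5c were also high in follicular cells after 6 h of stimulation, where they averaged 13.57, 11.26 and 11.88, against 14, 12.83 and 12.50 in day 7 memory cells. The difference of day 7 memory from stimulated follicular cells was 0.43 ± 0.26 (adjusted p = 0.167) and, without memory replicate 1, 0.34 (adjusted p = 0.348) for Nr4a3. For Rgs1 it was 1.57 ± 0.36 (adjusted p = 0.000963) and, without memory replicate 1, 0.95 (adjusted p = 0.00274). Nfil3, by contrast, averaged 4.20 in stimulated cells and differed by 8.78 ± 0.29 (adjusted p = 1.54e-14) and, without memory replicate 1, 9.06 (adjusted p = 6.85e-14).

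Falls differed in the same way. Crip3 was near the bottom of the scale in germinal center (2.27) and plasma cells (2.30) and stood at 4.87 in memory cells of day 40. Pde2a was low in memory and plasma cells, and high in germinal center cells of day 7, with a mean of 9.46, a difference of -5.37 ± 0.44 (adjusted p = 2.31e-08) and, without memory replicate 1, -5.49 (adjusted p = 8.77e-08). In germinal center cells of day 40 it averaged 4.11. Low levels were also found in marginal zone cells, another naive population, for Crip3 (2.88), Pde2a (3.60), Mapk12 (2.18) and Gad1 (2.31). Other large falls went differently there. Il12a averaged 7.48 in marginal zone cells, and Plpp3 (9.73) and Rtp4 (9.76) stood above their follicular means of 7.25 and 9.14. Mapk12 averaged 9.44 in memory cells of day 40, above the follicular mean of 7.98, so the low level of day 7 was not shared with day 40 memory cells, a difference of -6.98 ± 0.26 (adjusted p = 3.84e-12) and, without memory replicate 1, -6.89 (adjusted p = 1.53e-10).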

How the data were processed

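RNA extracted with TRIZOL was amplified with the Ovation system and hybridized to Affymetrix arrays, per the labels' protocols. The log2 expression values were deposited by the authors and made with GCRMA, per the submitters' processing notes. No version is given in the sources used here. GCRMA moves dim probe sets to a common low value, which bounds changes of genes near it. Of 45101 probe sets 64 were controls, 34945 had 1 gene symbol, 932 several and 9160 none, and the symbols named 18193 genes. For a gene with several probe sets, the brightest on average across the 24 arrays was used. Tests covered the 11208 genes that exceeded the median of an array on 3 or more arrays.

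Group means of 8 groups were fitted over all 24 arrays with limma 3.58.1 in R 4.3.3 (lmFit, eBayes), so all groups share an estimate of the spread, and the fit was repeated without memory replicate 1. Calls needed a Benjamini-Hochberg adjusted p under 0.05 and a change of at least 1. The fit was tested on simulated data. Promoters were matched and figures drawn with Python 3.11.15 and matplotlib 3.10.9. Named genes were the 12 largest rises and falls called in both fits without overlap of arrays, up to 4 called members of each described list, the 10 largest excesses and 5 largest deficits of memory replicate 1, index genes of B cell fates, and sort markers. Further list members were named for their role after their values were seen. Of 769 entries in 43 lists, 716 had a probe set. The members and lists were chosen with earlier results of these data known, so their directions are not independent evidence. Alternatives were normalization, filters, probe set choice, the prior, array weights, the replicate block and leaving out each array. Among 234 named genes, 168 other probe sets lay above background, of which 19 had the opposite sign. In 2 called genes, Ighm and Nfatc1, another probe set changed by 1 or more the other way. In 9 genes that were not called, another probe set above background changed by 1 or more.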

Additional observations from a re-analysis of the deposited data

Results flagged for a closer look

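The change against follicular cells differed between memory cells of day 7 and of day 40 in 43 of the named genes, 26 of them higher at day 7 and 17 lower, by the limma contrast between the memory groups with the same call rule. Both groups are set against the same follicular arrays, so each value is the day 7 mean minus the day 40 mean. Values given as "at least" are those of genes at background on each day 40 array. Most of the 43 genes were picked for a large change of day 7 cells against follicular cells. Genes named only as index genes, as sort markers or for replicate 1 were left out of this count. Over all 11208 genes tested, 562 (5.01%) were called in this contrast in either direction, with no split by direction at hand.

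Among genes higher at day 7 were the effector and calcium-binding genes S100a4 (5.32, 5.66 without replicate 1), Emp1 (at least 5.28, 5.71 without replicate 1), S100a6 (2.55, 2.80 without replicate 1) and Lgals3 (2.08, 2.48 without replicate 1). Memory and migration genes in the same direction were Zbtb32 (3.85, 4.29 without replicate 1), Cxcr3 (2.44, 2.48 without replicate 1), Ptpn22 (1.11, 1.46 without replicate 1) and Cd5 (3.74, 4.04 without replicate 1). The surface or signalling genes Ctla4 (1.90, 2.20 without replicate 1), Cd36 (3.15, 3.02 without replicate 1), Cd68 (2.70, 2.91 without replicate 1), Cd59a (2.20, 2.45 without replicate 1), Il1r2 (3.22, 2.94 without replicate 1), Spn (1.73, 2.17 without replicate 1), Tlr2 (1.80, 2.38 without replicate 1) and Entpd1 (1.86, 1.98 without replicate 1) were also higher. Plasma cell and other genes were Slpi (1.95, 1.80 without replicate 1), Tnfrsf17 (at least 2.79, 2.86 without replicate 1), Cish (1.88, 2.19 without replicate 1), Oas3 (at least 2.02, 2.88 without replicate 1), Pik3r6 (1.52, 1.97 without replicate 1) and Bcl2l11 (1.59, 1.57 without replicate 1). The cell division genes were Ube2c (2.21, 1.46 without replicate 1), Kif11 (2.24, 1.23 without replicate 1), Ccnb2 (2.18, 1.52 without replicate 1) and Cenpa (1.24, 1.08 without replicate 1).

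The lower genes were led by Mapk12 (-6.98, -6.89 without replicate 1), Gad1 (-4.76, -4.47 without replicate 1), Plpp3 (-3.61, -3.56 without replicate 1) and Spns2 (-3.54, -3.49 without replicate 1). Others were Cdkn1a (-2.39, -3.02 without replicate 1), Crip3 (-2.02, -1.90 without replicate 1), Hes1 (-1.92, -1.81 without replicate 1), Icosl (-1.89, -2.31 without replicate 1), Nrp2 (-1.83, -0.82 without replicate 1) and Cr2 (-1.74, -2.13 without replicate 1). Smaller differences were those of Itgae (-1.39, -1.24 without replicate 1), Nfkbid (-1.33, -1.11 without replicate 1), Asb2 (-1.26, -1.04 without replicate 1), Cbx7 (-1.25, -0.97 without replicate 1), Junb (-1.24, -1.19 without replicate 1), Mapk11 (-1.17, -1.05 without replicate 1) and Il10rb (-1.08, -0.86 without replicate 1).

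Without memory day 7 replicate 1 the contrast of Kif11 (adjusted p = 0.146), Ccnb2 (0.0867), Il10rb (0.0820), Cbx7 (0.0704), Il1r2 (0.0518) and Cd59a (0.0537) was no longer called (limma, Benjamini-Hochberg), and that of Nrp2 was under the minimum size.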

How the results depend on the processing

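Without memory replicate 1, 990 genes were higher and 1007 lower. Leaving out each array in turn gave 895 to 1037 higher and 903 to 1117 lower genes, against 1029 and 1031 with all arrays. The fits with no filter, quantile normalization, a median shift, an offset of 16, the mean of probe sets, cross-hybridizing names left out, a trended robust prior, array weights or only the compared groups gave 824 to 1080 higher and 871 to 1253 lower genes. The stricter filter gave 618 lower genes, and no minimum change 1762 higher and 1924 lower. Chosen after seeing the data, leaving out replicate 1 of both groups gave 867 higher and 1071 lower genes, and a median shift without memory replicate 1 gave 1012 and 898. Same-numbered arrays did not deviate together (correlations of -0.05, -0.06 and 0.03), so no pairing by number was seen. With 3 arrays a group these correlations cannot exclude a shared source, which the labels do not give. The fit with the replicate block gave 1036 higher and 1035 lower genes. Of 195 called named genes, 72 lost their call under at least 1 alternative, and of 1720 list counts over all alternatives 246 moved by more than 1.5 times. The cause of these moves was not tested. The sign of Ighm turned to 5.44 with the mean of its probe sets and 13 with cross-hybridizing names left out, and against stimulated follicular cells to 5.86 and 13.09. With those names left out Rfc4 stood at 0.54, Lmna at 0.00 against germinal center cells, -0.0567 against plasma cells and 0.00 against stimulated cells, and Kif11 at -0.12 against stimulated cells. Without memory replicate 1, and also with follicular replicate 1 left out, Camp stood at -0.005 and Ngp, Lcn2 and Mpo at 0. Over all fits that leave out a single array these 4 genes ranged from -0.005 to 4.195 (Camp), 0 to 3.945 (Ngp), 0 to 3.49 (Lcn2) and 0 to 3.33 (Mpo). With 3 arrays a group, small changes may be missed.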
